A study of Caenorhabditis elegans with 2 samples.

Results

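Of the 46890 nuclear genes in the WBcel235 annotation of Caenorhabditis elegans (Ensembl release 115), 346 have the biotype snoRNA, and 185 of these lie more than 1000 bp from every protein-coding transcript start. Those 185 genes are described here, against the 161 snoRNA genes that lie nearer to a start. The study measured where MES-2 sits on chromatin, by chromatin immunoprecipitation with sequencing (ChIP-seq) from whole hermaphrodites at the L4 larval stage, sheared by sonication and precipitated with an antibody to GFP. The worms were of strain OP248, a transgenic line in which an insertion targeting mes-2 makes the protein carry GFP-FLAG at its C-terminal end. Both samples, replicates 1 and 2, carry the same insertion and belong to 1 group. No untagged or input sample was analysed here, so how much of the signal depends on the tagged protein was not tested, and whole worms pool all tissues. The measurements are the authors' peak lists on the ce11 build, which is the WBcel235 sequence. A gene counted as having a summit when the highest point of a thresholded peak lay within 500 bp of it.

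Small nucleolar RNAs guide chemical changes in other RNAs. Those with C and D boxes direct methylation of ribose, and those with an ACA box direct conversion of uridine to pseudouridine, mostly in ribosomal and spliceosomal RNA. In animals many are cut from the introns of host genes after splicing, while others have promoters of their own, some of them in nematodes resembling the internal A and B boxes by which RNA polymerase III recognises tRNA genes. MES-2 is the worm homologue of Enhancer of zeste, the subunit of Polycomb repressive complex that methylates lysine 27 of histone H3, and it is known for silencing in the germline.

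The sequences below show what lies under the strongest summits. They are the 8 members with the highest signals at distinct summits, leaving out 1 chromosome, followed by 2 members without a thresholded summit for contrast. The 2 were taken, off the same chromosome, from intron-hosted members with identifier numbers under 100000, a split described below. Among these they had the highest signal in the unthresholded pooled list. They do not stand for all 125 members without a summit. Each line holds the 100 bases before the annotated 5′ end and then the whole gene, 5′ to 3′, from the RefSeq genome sequence of WBcel235. Before the gene, capitals mark an A-box-like match (TGGNNNAG) and a B-box-like match (GTTCNANNC) that starts 20 to 90 bases after the A match starts. Within the gene, capitals mark TGATGA in the first 25 bases, the letters of the C box, and CTGA in the last 20, the letters of the D box.
ZK994.7 (chrV:8500479-8500645, + strand): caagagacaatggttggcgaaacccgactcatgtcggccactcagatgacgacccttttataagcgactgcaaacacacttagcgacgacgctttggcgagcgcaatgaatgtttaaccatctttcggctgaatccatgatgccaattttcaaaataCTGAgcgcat
C51F7.3 (chrV:12303608-12303783, + strand): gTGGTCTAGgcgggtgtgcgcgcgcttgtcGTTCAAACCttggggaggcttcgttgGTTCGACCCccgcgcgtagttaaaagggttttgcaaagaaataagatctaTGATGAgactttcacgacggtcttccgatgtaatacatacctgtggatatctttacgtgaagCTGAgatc
T06C12.16 (chrV:15873855-15874026, - strand): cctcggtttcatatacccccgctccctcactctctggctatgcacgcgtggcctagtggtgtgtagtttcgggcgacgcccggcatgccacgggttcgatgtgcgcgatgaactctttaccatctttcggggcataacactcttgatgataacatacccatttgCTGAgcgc
T03F7.8 (chrV:11314158-11314332, + strand): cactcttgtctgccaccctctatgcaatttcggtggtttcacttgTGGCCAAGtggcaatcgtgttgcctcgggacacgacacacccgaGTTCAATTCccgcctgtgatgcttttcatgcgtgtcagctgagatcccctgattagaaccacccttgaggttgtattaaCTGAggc
F32E10.10 (chrIV:7574022-7574191, + strand): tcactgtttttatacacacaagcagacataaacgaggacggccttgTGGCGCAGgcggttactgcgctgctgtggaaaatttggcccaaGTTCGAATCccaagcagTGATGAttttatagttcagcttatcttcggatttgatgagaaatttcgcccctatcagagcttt
C10C6.8 (chrIV:11474059-11474291, - strand): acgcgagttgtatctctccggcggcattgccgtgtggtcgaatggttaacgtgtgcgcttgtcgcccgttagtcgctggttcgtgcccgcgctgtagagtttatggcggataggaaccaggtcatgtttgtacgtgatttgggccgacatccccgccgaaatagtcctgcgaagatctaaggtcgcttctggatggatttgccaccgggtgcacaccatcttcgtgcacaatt
C05D2.15 (chrIII:5602054-5602279, - strand): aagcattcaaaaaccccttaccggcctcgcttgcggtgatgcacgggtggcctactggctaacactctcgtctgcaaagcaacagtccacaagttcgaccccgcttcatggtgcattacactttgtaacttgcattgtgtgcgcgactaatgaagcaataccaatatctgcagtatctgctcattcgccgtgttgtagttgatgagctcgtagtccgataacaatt
W03C9.9 (chrII:11960798-11960959, + strand): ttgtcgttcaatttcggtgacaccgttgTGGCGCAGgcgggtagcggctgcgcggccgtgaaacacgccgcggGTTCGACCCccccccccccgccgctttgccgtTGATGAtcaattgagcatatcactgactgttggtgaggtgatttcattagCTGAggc
F17C11.14 (chrV:10967390-10967616, + strand): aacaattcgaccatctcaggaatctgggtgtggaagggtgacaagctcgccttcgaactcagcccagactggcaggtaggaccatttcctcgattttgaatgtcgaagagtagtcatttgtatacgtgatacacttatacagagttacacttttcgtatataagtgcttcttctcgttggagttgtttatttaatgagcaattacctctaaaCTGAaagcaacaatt
R166.7 (chrII:10545199-10545429, - strand): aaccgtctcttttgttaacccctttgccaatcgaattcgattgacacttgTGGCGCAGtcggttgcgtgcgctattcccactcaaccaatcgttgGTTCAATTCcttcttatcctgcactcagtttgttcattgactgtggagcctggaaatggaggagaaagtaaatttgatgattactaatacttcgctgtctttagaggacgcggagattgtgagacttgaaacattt
The marked pair lies before 4 of the 8 genes with a summit, C51F7.3, T03F7.8, F32E10.10 and W03C9.9. Lower-case letters before T06C12.16, C10C6.8 and C05D2.15 did not match the pair as spelled, and neither did those before ZK994.7. Of the contrasting genes, F17C11.14 has no match and R166.7 has the pair without a thresholded summit.

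Thresholded summits lay within 500 bp of 60 of the 185 genes, a share of 32.4% (exact Clopper-Pearson 95% interval 25.7 to 39.7, for counting error only). Among the 161 snoRNA genes nearer to starts, 73 had one, 45.3% (37.5 to 53.4), and the intervals of the 2 shares overlap. The background over all nuclear genes was 13.8%, and over all snoRNA genes 38.4%. Genes of other biotypes more than 1000 bp from coding starts had a summit in 4.84% of 18229 cases. By biotype and at the same distance, the share was 56.4% of 381 tRNA genes, 20.4% of 167 miRNA genes, 16.4% of 67 snRNA genes and 11.1% of 4610 genes annotated only as ncRNA. Each of these shares is above 4.84%, so that value is set largely by genes of further biotypes, not listed here, with a lower share. Of all genome bases more than 1000 bp from coding starts, 3.02% lay within 500 bp of a summit. The interval of the distant snoRNA share lies above the miRNA, snRNA and ncRNA values and below the tRNA value. Those values were given no intervals of their own, and the miRNA and snRNA ones rest on 34 and 11 genes with a summit.

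**Figure D1:**
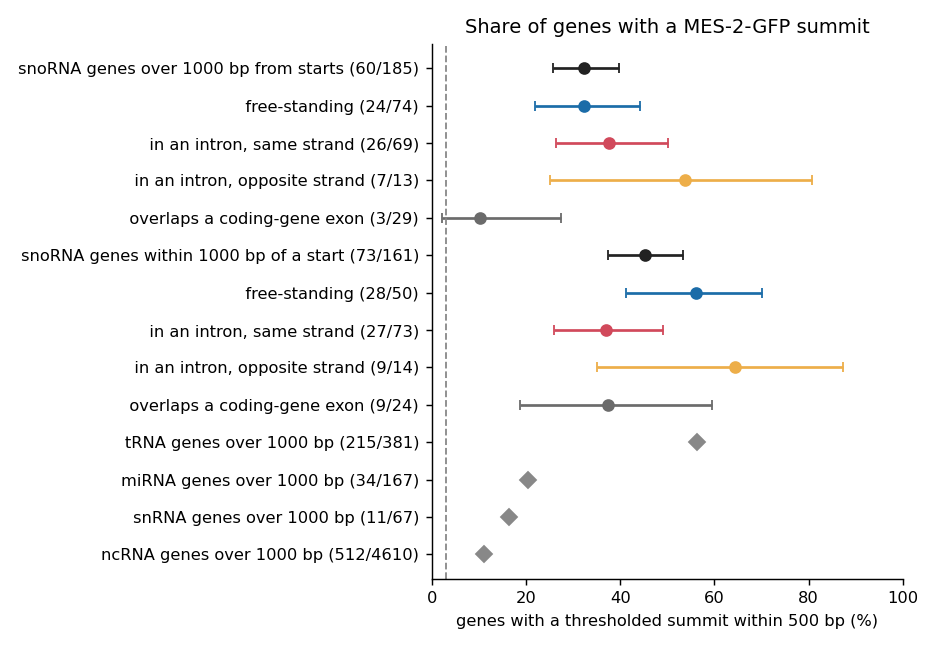
The x axis gives the percentage of genes with a thresholded summit within 500 bp, by gene set on the y axis, with the counts in brackets. Circles with bars are snoRNA shares with exact 95% intervals, diamonds are other biotypes more than 1000 bp from starts, and the dashed line is the 3.02% of such genome bases near a summit; the distant snoRNA genes stand at 32.4%, between tRNA genes at 56.4% and miRNA genes at 20.4%.

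The host setting divided the members into 4 classes. Free-standing genes, which overlap no coding gene, had a summit in 24 of 74 cases (32.4%, 22.0 to 44.3). Genes inside an intron on the host's own strand, the arrangement from which snoRNAs can be spliced out, had one in 26 of 69 cases (37.7%, 26.3 to 50.2). Free-standing and intron-hosted genes thus had shares whose intervals overlap over most of their length, and their median peak signals were 381.4 and 381.3. Genes in an intron but on the opposite strand had a summit in 7 of 13 cases (53.8%, 25.1 to 80.8), with a median signal of 256.1. Genes that overlap an exon of a coding gene had one in only 3 of 29 cases (10.3%, 2.19 to 27.4). Nearer to starts, the corresponding shares were 56.0% of 50 free-standing, 37.0% of 73 intron-hosted, 64.3% of 14 opposite-strand and 37.5% of 24 exon-overlapping genes. The share was thus lower away from starts for free-standing, opposite-strand and exon-overlapping genes, with intervals that overlap those of the nearer genes (41.3 to 70.0, 35.1 to 87.2 and 18.8 to 59.4), and it was almost equal for intron-hosted genes.

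The peaks at these genes were strong for the list. The thresholded list holds 5501 peaks with signals of 73.5 to 2503 and a median of 139.9, on a scale that the sources used here do not give. At the 60 members the highest signal within reach ranged from 77.4 to 760.6 with a median of 368.3, and 43 members exceeded the list's median. The list's upper quartile is 249.9, and 38 of the 60 exceeded or reached it. The 73 nearer genes had a median of 347.8 and reached 1324.4. For comparison, the 2623 thresholded summits more than 500 bp from any coding start had a median of 115.8.

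Summits sat just before the genes. The summit nearest to the 5′ end lay 1 to 100 bp upstream of it in 42 of 60 members (70.0%, 56.8 to 81.2), with a median of 38.5 bp upstream and quartiles at -47.25 and -25.0 bp. Of the other 18, 5 lay inside the gene, 8 beyond its 3′ end and 5 more than 100 bp upstream. The upstream group was also the stronger one: its signals ran from 95.5 to 760.6 with a median of 410.2, against a median of 108.4 (77.4 to 673.4) for summits elsewhere. Among the nearer snoRNA genes 40 of 73 (54.8%, 42.7 to 66.5) had the summit in the same 100 bp. Counted over all genes, with or without a summit, it lay there at 22.7% of the distant and 24.8% of the nearer snoRNA genes. Of the intron-hosted members with a summit, 20 of 26 had it there, against 8 of 27 intron-hosted genes nearer to starts. None of the 33 members in introns with a summit had the highest one in an exon of the host. The same was true of every nearer intronic gene with a summit, so this did not set the members apart.

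**Figure D2:**
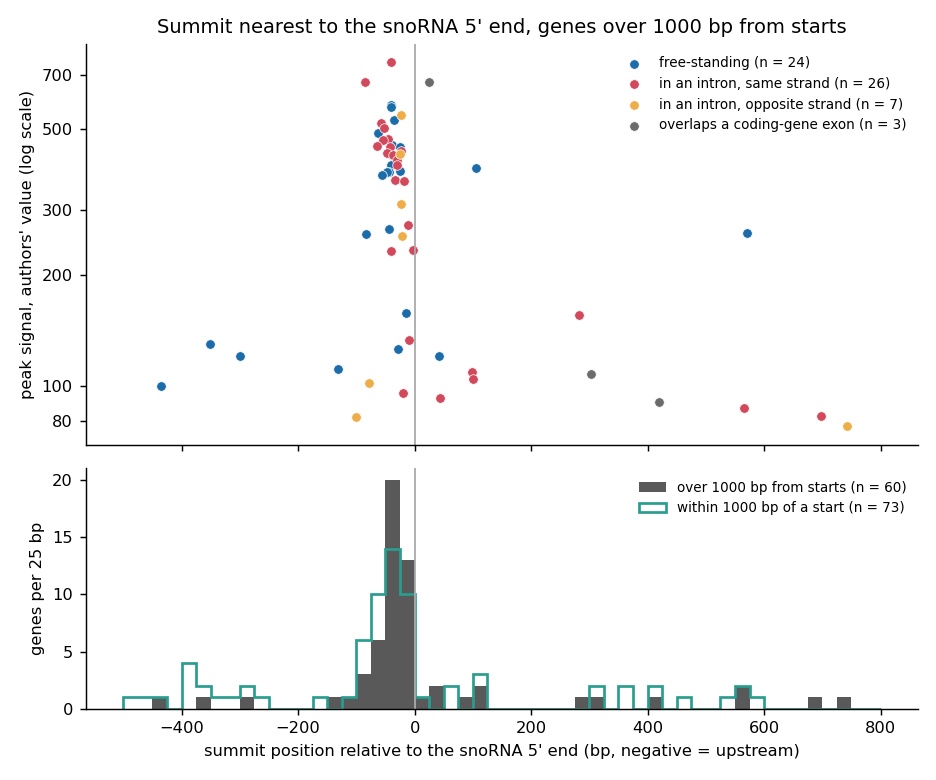
The upper plot sets peak signal (log scale) against the position of the summit relative to the snoRNA 5′ end, for the 60 members with a summit, coloured by host class. The lower histogram counts genes per 25 bp for these and for the 73 snoRNA genes nearer to starts; 42 of 60 lie in the 100 bp before the 5′ end, where the median signal is 410.2.

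Each summit mostly belonged to 1 gene. The 60 members were reached by 60 distinct summits. C51F7.3 and C51F7.4 shared one, and C26C6.13 had a pair of summits. A tRNA gene lay within 500 bp of 1 member with a summit, C16D9.10, and of none without, so 59 of the 184 members with no tRNA gene near them had a summit (32.1%). A summit of 9 members fell inside a gene of biotype ncRNA, and that of C51F7.3 fell inside the snoRNA gene C51F7.4. The share of all thresholded summits inside ncRNA genes was not counted, so the 9 do not set the members apart.

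Among intron-hosted members the strongest was ZK994.7, in an intron of pxn-1, a peroxidasin homologue. Its thresholded signal was 760.6, rank 202 of 5501, with 411.4 (rank 216) in replicate 1 and 336.6 (rank 215) in replicate 2. Ranks are within each replicate's own list of 30000 regions, and signals of different lists share no stated scale. The summit lay 41 bp before the gene, and the region ranked similarly in the 2 replicates.

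C51F7.3, in an intron of the FERM-domain gene frm-7, had a signal of 673.4 with 328.6 in replicate 1 and 329.3 in replicate 2, at a summit 85 bp before its 5′ end. The same summit lay 24 bp into C51F7.4, an annotated snoRNA gene that overlaps an exon of frm-7 and was therefore counted in the exon-overlapping class. The sequence printed above for C51F7.3 holds most of that neighbour as well, without its first bases.

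C10C6.8, in an intron of the cation-transporting ATPase gene catp-8, had 519.8 (replicates 291.4 and 217.9), with the summit 58 bp upstream. C05D2.15, in an intron of madf-11, had 504.0 (replicates 298.2 and 232.3), with the summit 52 bp upstream. Further intron-hosted genes among the 15 strongest members began with Y38F2AR.14, which had 469.6 (275.1 and 188.0). M106.6, in mix-1, which encodes a subunit of condensin, had 467.7 (292.3 and 179.4). C16D9.11, in rol-3, which encodes a receptor tyrosine kinase-like protein, had 448.6 (289.4 and 166.8). At all of them the summit stood 45 to 64 bp before the snoRNA and more than 1000 bp from any coding start.

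Free-standing members reached nearly the same height. T06C12.16 had 580.0 (rank 353), with 325.5 and 246.8 in the replicates, and its summit lay 41 bp upstream. T19B4.8 had 572.8 (297.0 and 279.9), also 41 bp upstream. F32E10.10 had 530.0 (270.6 and 233.6) at 36 bp, and W03C9.9 had 489.0 (280.8 and 219.2) at 63 bp. All 4 peaks ranked among the best 500 of the thresholded list.

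Some members far from any coding start also had strong peaks. Of the 110 members more than 2000 bp from a start, 30 had a summit (27.3%, 19.2 to 36.6), against 32.4% of all 185. The 3 members with a summit that lay farthest from a coding start were Y23H5B.10, 16034 bp away with a signal of 383.8, F30H5.4, 9328 bp away with 451.3 (202.0 and 265.6), and Y74C9A.6, 6321 bp away with 407.5. All are free-standing, and their summits lay 25, 38 and 33 bp upstream. Members with a summit lay at a median of 2011.5 bp from a coding start, and those without at 2724 bp and up to 24180 bp. ZK643.9, also free-standing, completed the 15 strongest members with 446.7 (250.2 and 201.6).

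Of the 7 members that lie opposite to their host's strand and have a summit, 5 had it in the 100 bp upstream, and the 4 strongest are among them. T03F7.8, opposite to the cuticlin-like gene cutl-18, had 546.9 (316.2 and 262.9), with the summit 23 bp before its own 5′ end. C07A9.14 in ncx-7, a sodium-calcium exchanger gene, had 426.4 (204.1 and 195.9). Y55F3BR.9 had 312.9 and C05H8.3 in ckk-1, which encodes a kinase of calmodulin-dependent kinases, had 256.1. In these 4 the summit lay 22 to 25 bp upstream on the snoRNA's strand.

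In the exon-overlapping class the peaks were weak apart from the shared one at C51F7.4. F58D5.12 had 107.8, with no overlapping region in replicate 2, and F41E6.18 had 90.4. Their summits lay 303 and 420 bp after the 5′ end, so neither peak stood at the start of the snoRNA.

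**Figure D3:**
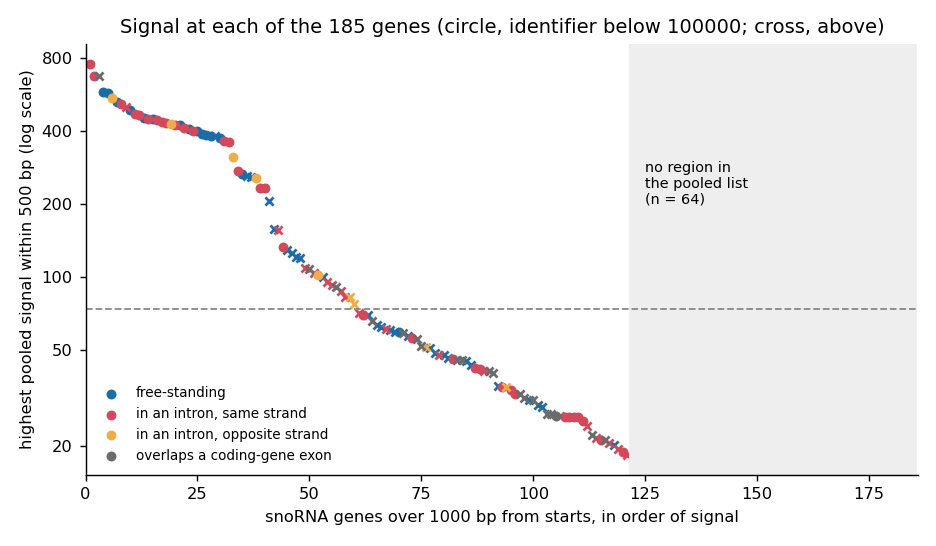
Highest pooled signal within 500 bp (log scale) for each member, in order of signal, coloured by host class. The dashed line is the lowest thresholded signal, 73.5; circles are genes with an identifier number below 100000 and crosses those above, and the 64 members in the shaded area have no region in the pooled list.

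Both replicates held most of these peaks, which come from a list already thresholded by irreproducible discovery rate. Support and correlation between the replicates are therefore partly set by that selection and are no independent check. Support was counted when a peak overlapped one of the 5501 strongest regions of each replicate, and 49 of 60 members had it (81.7%, 69.6 to 90.5). The share was 86.3% at the nearer snoRNA genes and 64.8% over all 5501 thresholded peaks. Replicate 1 alone held 56 of the 60 and replicate 2 alone held 53, and 58 overlapped some region of both full lists. Support was present at 41 of the 42 members with an upstream summit and at 8 of the 18 with a summit elsewhere. Over the 58 members seen in both replicates the summits were a median of 21.5 bp apart, 52 of them within 50 bp. Spearman's rho of the replicate signals across these 58 genes was 0.852, a description over genes that share the same 2 libraries. The median rank was 840 in replicate 1 and 854.5 in replicate 2, and the lowest ranks were 10455 and 22073.

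**Figure D4:**
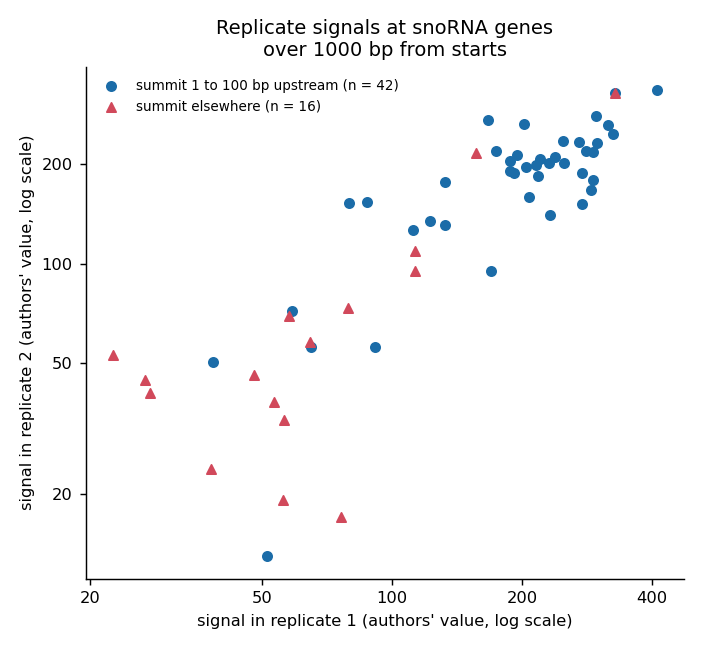
Signal in replicate 1 against signal in replicate 2 (both log scales, authors' values) at the 58 members found in both lists. Blue circles have the summit 1 to 100 bp upstream and red triangles elsewhere; the upstream group fills the upper right, and the genes whose replicates differ most are weak ones.

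The A-box-like and B-box-like letters were then counted. In 301 bp centred on the summit, on either strand, the strict B form GTTCGANNC occurred at 11 of the 60 distinct member summits (18.3%). It occurred at 6.74% of all thresholded summits and at 70.7% of the 328 summits near tRNA genes. At 2289 summits away from coding starts with no tRNA or snoRNA gene near, the share was 3.15%. The looser GTTCNANNC, which includes every strict match, occurred at 30.0% of member summits, with 14.4%, 93.0% and 10.5% in the same 3 sets. The pair of TGGNNNAG followed by GTTCNANNC occurred at 15%, with 4.58%, 56.1% and 1.4%. A match is a description of letters and not a measured site.

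Position was counted from the gene's side. In the 200 bases before the 5′ end and the first 8 of the gene, on the gene's own strand, the pair preceded 10 of the 185 members (5.41%), and preceded none on the reverse strand. It preceded 22 of 17848 other non-coding genes or pseudogenes at the same distance from coding starts that are not tRNA genes (0.123%). That pool mixes biotypes and was not split. Of the 10 members with the pair, 9 had a summit (90%, 55.5 to 99.7), against 51 of 175 without it (29.1%, 22.5 to 36.5). The pair uses the looser B letters, which were chosen after the sequences were seen, so these shares are no independent test. All 10 members with the pair have identifier numbers under 100000, a split described below, where 37 of 64 members had a summit (57.8%, 44.8 to 70.1). The 175 include all 121 members with higher numbers, of which 23 had a summit (19.0%). Among the 64, the pair preceded 9 of the 37 with a summit (24.3%) and 1 of the 27 without (3.7%). The nearer snoRNA genes had the pair about as often, 8 of 161 (4.97%), and 6 of those 8 had a summit (75%, 34.9 to 96.8). In the 9 distant members the A match began a median of 60 bp and the B match ended a median of 9 bp before the gene, with 43 to 55 bp from the start of A to the start of B. The summit lay between the outer ends of the matches in 8 of the 9. Members with the pair were of 3 classes: T19B4.8, F32E10.10, W03C9.9, F30H5.4 and Y39G10AR.24 are free-standing, C51F7.3, M106.6, T24H7.6 and R166.7 are intron-hosted, and T03F7.8 lies opposite to its host. Most members with an upstream summit, 33 of 42, had no such pair.

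Over all members, those whose RNA ends in D-box letters had a summit more often than those with neither box. Within the identifier blocks described next, this order held in the lower block only, with overlapping intervals. CTGA in the last 20 bases, the D-box letters of methylation guides, occurred in 47 members, of which 28 had a summit (59.6%, 44.3 to 73.6). ACA 3 bases before the 3′ end, as in pseudouridylation guides, occurred in 21, of which 7 had a summit (33.3%, 14.6 to 57.0), and 6 members had both ends. The remaining 123 had neither, and 29 of them had a summit (23.6%, 16.4 to 32.1). Among the nearer snoRNA genes the shares lay closer together, at 17 of 34 with the D-box end, 18 of 37 with the ACA end (48.6%) and 40 of 94 with neither (42.6%). Every one of the 18 members whose summit lay elsewhere than in the 100 bp upstream had neither end. By contrast, 31 of the 42 with an upstream summit had at least one. A run of TTTT, the letters at which RNA polymerase III stops, began and ended within 20 bases after the gene in 34 of those 42 (81.0%), in 5 of the 18 (27.8%), and in 47 of the 125 members without a summit (37.6%). Over all 346 snoRNA genes TTTT was found there in 41.9%, and in 55.0% of the 40 nearer genes with an upstream summit. Among members with identifier numbers under 100000, it followed 86.5% of those with a summit and 51.9% of those without. Among the other members it followed 30.4% and 33.7%.

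The share with a summit also differed by the genes' WormBase identifier numbers. These fall into a lower block under 100000 and a higher block, a split made after the values were seen. In the lower block 37 of 64 members had a summit (57.8%, 44.8 to 70.1), 36 of them in the 100 bp upstream and all 37 with support of both replicates. In the higher block 23 of 121 had one (19.0%, 12.4 to 27.1), 6 upstream and 12 with support. Median signals were 423.9 and 120.1. D-box or ACA ends occurred in 51 of the 64 lower-block genes and in 11 of the 121 others, and the gene lengths had medians of 85 and 142 bp. Within the lower block, a summit was present at 29 of 51 genes with either end (56.9%) and at 8 of 13 with neither (61.5%). Within the higher block it was present at 2 of 11 (18.2%) and 21 of 110 (19.1%). Higher-block genes with the D-box end had a summit in 1 of 7 cases (14.3%, 0.361 to 57.9). By kind of end, lower-block genes with the D-box end had a summit in 27 of 40 cases (67.5%, 50.9 to 81.4) and those with the ACA end in 6 of 17 (35.3%, 14.2 to 61.7), with intervals that overlap. By class, 14 of 17 free-standing lower-block genes had a summit (82.4%, 56.6 to 96.2) and 18 of 37 intron-hosted ones (48.6%, 31.9 to 65.6), the latter all upstream. In the higher block the counts were 10 of 57 and 8 of 32. Of the nearer snoRNA genes, 46 of 75 in the lower block had a summit (61.3%, 49.4 to 72.4). In the higher block 27 of 86 nearer genes had one (31.4%, 21.8 to 42.3).

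Intron-hosted members of the lower block with and without a summit had different lengths of intron before them, while over both blocks the medians were close, 213 bases with a summit and 232 without. In the lower block the 18 with a summit had a median of 167.5 intron bases before the snoRNA (74 to 5109) and 54 after it. The 19 without had a median of 42 before (21 to 905) and 62 after. At most 50 intron bases preceded the snoRNA in 0 of the 18 and in 12 of the 19 (63.2%, 38.4 to 83.7), a limit chosen after the values were seen. Among these 12, also named after their values were seen, were K07C5.10 and K07C5.12 in nol-56, which encodes a core protein of C/D snoRNA particles, and C50C3.13 and C50C3.14 in prp-8, which encodes a central splicing factor. The 3 genes in 1 intron of top-2, which encodes a DNA topoisomerase, were also without a summit, so the 19 genes are not all independent. In the higher block the order was the other way, with a median of 422.5 bases before the 8 with a summit and 1004.5 before the 24 without. At lower-block intron-hosted genes nearer to starts the pattern was not seen: at most 50 bases preceded 12 of the 21 with a summit and 17 of the 26 without.

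**Figure D5:**
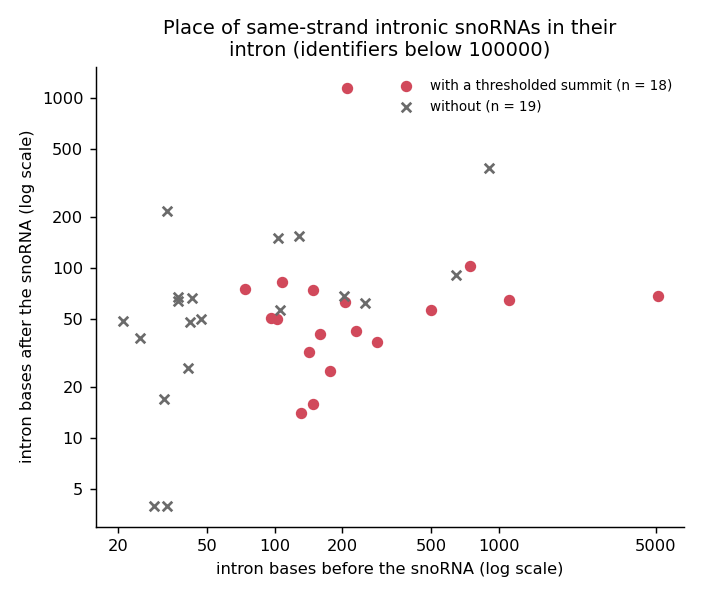
Intron bases before the snoRNA against intron bases after it (both log scales) for the 37 intron-hosted members with identifiers below 100000. Red circles have a thresholded summit and begin at 74 bases before the gene; grey crosses have none, and 12 of the 19 have at most 50 bases.

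The 125 members without a thresholded summit were not all blank. In the unthresholded pooled list, 61 had a region within 500 bp, with signals of 18.3 to 70.8 and a median of 40.1, and 64 had none. The list's own median was 34.4. The summit lay in the 100 bp upstream in only 8 of the 61. The 4 highest were K10G6.10 in sea-2 with 70.8, F17C11.14 in eef-1G, a translation elongation factor gene, with 69.8, ZK930.15 with 69.4, and R144.18, which overlaps an exon of larp-1, with 65.8. Their summits stood 448 and 589 bp after and 165 and 312 bp before the 5′ end, so none was placed as at the members with strong peaks. Depth is unknown, and a missing peak does not show that MES-2-GFP was absent.

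The chromosomes had overlapping intervals, with the lowest share on X. The autosomes had a summit at 29.0% to 39.4% of their members, and X had 2 of 22 (9.09%, 1.12 to 29.2), C34E11.20 with 157.9 and W01H2.11 with 129.6. The interval of X overlaps those of the 5 autosomes, but its upper end, 29.2, lies below the shares of chromosomes I, II, IV and V. All 22 members on X belong to the higher identifier block, in which the autosomes had a summit at 21 of 99 (21.2%, 13.6 to 30.6). Of the nearer snoRNA genes on X, 4 of 11 had one (36.4%, 10.9 to 69.2). At the 1000 bp limit itself, the members just over it were F12F6.11 (1022 bp), with a signal of 423.9 at 39 bp upstream, and C09H10.19 (1024 bp) and R144.18 (1046 bp), both without a summit. The genes just under it were T19C4.11 (979 bp), with 151.5 at 46 bp upstream, and W06A7.12 (973 bp) and Y110A2AL.20 (972 bp), both without one.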

How the data were processed

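The data are peak lists from 2 ChIP-seq samples of 1 group, replicates 1 and 2, labelled as biological; whether they came from separate cultures is not stated, so agreement between them may be technical. Per the submitters' file lists, the authors called 30000 regions on each replicate and on the pooled alignments, each against a control alignment, and thresholded a combined list by irreproducible discovery rate to 5501 peaks. Which aligner, peak caller, versions and threshold they used is not stated in the labels or file lists. The deposited signal (column 7 of the narrowPeak layout) has no stated scale and was used only within a list. The deposited −log10 q-value (column 9) served only as an alternative threshold of 2. No read counts are given, so depth is unknown. The ce10 lists were not used.

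Summits and genes were joined by position in Python 3.11.15 with pandas 2.3.3 and NumPy 2.4.6. Shares have exact Clopper-Pearson 95% intervals (SciPy 1.17.1), which cover counting error only; no p-value was computed. A replicate supported a peak when one of its 5501 strongest regions overlapped it by at least 1 bp. Genes named were the 15 members of highest signal, the 4 highest per host class (one class has 3 with a summit), the 4 highest without a thresholded summit, the 3 with a summit farthest from a coding start, and the 3 on either side of 1000 bp; others are named where a small count singled them out, after their values were seen. The joins were checked on simulated data. Members and lists were chosen with earlier results of these data known.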

Additional observations from a re-analysis of the deposited data

How the results depend on the processing

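Of 66 alternatives computed, 54 gave a value inside the interval of the main value and 12 gave one outside it. A reversal was counted only for a change of sign, and none was found. Shares and signals cannot be negative, so that count bears on the summit positions alone and is no test of the rest. The share of distant and nearer snoRNA genes with a summit was 40.5% and 64.0% with a window of 1000 bp, and the nearer share was 32.3% with 250 bp. With the 2750 stronger thresholded peaks alone the shares were 23.2% and 36.6%. With the 17622 pooled regions at a −log10 q of at least 2 they were 54.1% and 67.1%, with 52.7% for free-standing and 55.1% for intron-hosted members. Support of both replicates was 96.7% with any region, 68.3% with the 2750 strongest regions of each replicate, and 100% for the stronger peaks alone. Leaving out 1 replicate, by taking the 5501 strongest regions of the other, gave 34.1 to 36.8% (distant), 44.7 to 46.6% (nearer), 39.2 to 41.9% (free-standing), 36.2 to 37.7% (intron-hosted) and a median summit position of -32 to -29 bp. Nearer genes had the higher share under each alternative computed, but none of these held the identifier block fixed. In the lower block the shares were 57.8% (distant) and 61.3% (nearer), and in the higher block 19.0% and 31.4%. The order also depended on where the summit lay. For a summit in the 100 bp upstream the shares of all genes were 22.7% (distant) and 24.8% (nearer). In the lower block they were 56.2% and 40.0%, and in the higher block 4.96% and 11.6%. The looser B-box letters, and so the pair that uses them, were chosen after the sequences were seen. Depth is unknown, so thresholds rather than counts limit what is called absent, and 2 replicates limit the precision. No paired analysis was possible because there is only 1 group.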
